A study of Mus musculus with 2 samples.

Results

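The hairpins of miR-322, miR-503, miR-351, miR-542, miR-450a and miR-450b lie side by side on the X chromosome of the mouse and are known as 1 miRNA cluster. It was examined in small RNA libraries of wild type (WT) C57BL/6 hearts at embryonic day 9.5 (E9.5), when the looped heart tube is dividing into atria and ventricles. The series holds 1 group of 2 samples, replicate 1 and replicate 2, so no treatment, genotype or stage could be compared. Total RNA of hearts was used, and the sources do not say how many hearts went into a sample or whether the replicates came from separate litters. Hence a difference between the replicates measures the spread between these samples, which may be technical. For each known precursor the tables give raw read counts of its mature part, which is the arm with most reads, of its loop and of the opposite arm. The members are all precursor entries named miR-322, miR-503, miR-351, miR-542, miR-450a or miR-450b. This rule found 8 entries, all listed in both replicates, of 620 entries in all, of which replicate 1 listed 568 and replicate 2 listed 523. The mature reads of all entries summed to 4942257 in replicate 1 and 4806179 in replicate 2. These totals count the reads of a sequence listed at several entries at each of them, so they are not the number of reads sequenced.

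A miRNA is cut as a hairpin from a longer transcript, and one or both of its arms, called 5p and 3p, can enter a silencing complex. There the seed, which is nucleotides 2 to 8 of the miRNA, pairs with target mRNAs. The 5p arms of miR-322 (the counterpart of human miR-424) and miR-503 share nucleotides 2 to 7 with the miR-15/16 family, which is known to restrain cell cycle genes such as cyclins and Cdc25a. MiR-322 and miR-503 are known from earlier work in early heart progenitors of the Mesp1 lineage, where they favour the cardiomyocyte program, and in differentiating skeletal myoblasts. MiR-351-5p has the same seed as miR-125. The miR-542 and miR-450 hairpins are less well studied.

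In the deposited tables the hairpins occupy 6319 bp on the minus strand of chromosome X of mm9, chrX:50401186-50407504. In the direction of transcription the order is miR-322 (50407446 to 50407504), miR-503 (50407164 to 50407226), miR-351 (50406453 to 50406515), miR-542 (50402591 to 50402651), miR-450a-2 (50401485 to 50401537), miR-450a-1 (50401349 to 50401404) and miR-450b (50401186 to 50401242). A second miR-450b entry (50401221 to 50401271) overlaps the first by 22 bp and lists the same mature reads, but had no reads on an opposite arm, a miRDeep2 score of -8.8 and no significant folding test, whereas scores of the other 7 entries were 1100 or higher. Each entry overlaps the annotated hairpin gene of its name in GENCODE vM1 (Mir322, Mir503, Mir351, Mir542, Mir450-2, Mir450-1 and Mir450b) and no other gene. The nearest annotated gene upstream on the same strand is the lincRNA C430049B03Rik (50408223 to 50410367), 718 bp from the miR-322 precursor. Downstream, the nearest gene is Hprt (50341314 to 50374836) on the plus strand, 26349 bp away. The precursors stand in 2 tight groups, since miR-351 ends 3801 bp before miR-542 begins, while the other gaps are at most 1053 bp.

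The sequences of the arms are shown because the seed sets which mRNAs a miRNA can pair with, and the members differ in theirs. They are the consensus sequences of the reads from 5′ to 3′, and capitals mark nucleotides 2 to 8.
miR-322-5p: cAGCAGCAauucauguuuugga
miR-322-3p: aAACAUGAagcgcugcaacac
miR-503-5p: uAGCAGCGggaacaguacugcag
miR-503-3p: gGAGUAUUguuuccacugccugg
miR-351-5p: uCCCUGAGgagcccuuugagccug
miR-542-3p: uGUGACAGauugauaacugaaag
miR-450a-5p: uUUUGCGAuguguuccuaaua
miR-450b-5p: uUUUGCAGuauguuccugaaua
miR-450a-1-3p: aUUGGGAAcauuuugcauaaa
miR-450b-3p: aUUGGGAAcauuuugcaugca

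Thus the 5p arms of miR-322 and miR-503 share nucleotides 2 to 7 and part at nucleotide 8, and 11 of 22 letters were the same when read from the 5′ end. The 3p arms of miR-450a-1 and miR-450b have 1 seed in common and the same letter at 19 of 21 positions, whereas the 5p arms of miR-450a and miR-450b differ within the seed and have the same letter at 15 of 21. Both miR-450a hairpins give the same 5p sequence, so their 5p reads cannot be assigned to either hairpin. All 13 arms of the cluster had a RefSeq entry (build GRCm38.p6), and 12 of the 13 started at the same nucleotide as that entry. The exception was miR-503-3p, whose consensus in both replicates begins 1 nucleotide before the RefSeq sequence.
miR-503-3p in these hearts: gGAGUAUUguuuccacugccugg
miR-503-3p in RefSeq: gAGUAUUGuuuccacugccugg

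With this start the seed of miR-503-3p reads GAGUAUU in place of AGUAUUG. Over all entries listed in both replicates whose name is in RefSeq, the first 15 nucleotides were those of RefSeq in 348 of 390 entries (89.2%).

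Together the 8 entries had 67603 and 75224 mature reads in replicates 1 and 2, that is 1.37% (95% Wilson interval 1.36% to 1.38%) and 1.57% (1.55% to 1.58%) of all mature reads, or 1.47% ± 0.14 (SD, n = 2). The Wilson intervals here, and the Fisher's exact tests used further on, cover read-counting error only, between 1 library and another. The sum counts the reads of miR-450a-5p and miR-450b-5p at 2 entries each. Of the mature reads on chromosome X the 8 entries took 34.0% in replicate 1 and 34.7% in replicate 2. Among 85 runs of neighbouring precursors (gaps of at most 10 kb on 1 strand) the cluster ranked 12 by mean share. It followed the runs of miR-26a-5p with miR-546 (1.71% ± 0.16) and of miR-341, miR-1188 and miR-370 (1.68% ± 0.05), and preceded those of miR-23b, miR-27b and miR-24-1 (1.22% ± 0.07) and of the miR-218 entries on chromosome 5 (1.03% ± 0.03; SD, n = 2 for each). By these sums over entries, the replicate values of the cluster overlapped with those of none of these 4. The runs were not ranked with each sequence counted once, so the separation from its neighbours holds only for sums that include repeated reads.

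As a check of the heart label, the markers miR-1a, miR-133a, miR-208b and miR-499 were listed in both replicates, while miR-208a was listed only in replicate 1, with 860 reads. MiR-126a (endothelium), miR-143 and miR-145a (smooth muscle), miR-451a and miR-486a (erythroid cells), miR-122 (liver) and miR-9 (neural tissue) were also listed in both. The marker lists of other cell types were thus not at 0, and being listed does not by itself tell tissues apart. In replicates 1 and 2, miR-1a had 9.97% and 10.5% of mature reads by its higher entry, and miR-143 had 7.32% and 6.19%. MiR-208b had 0.0380% and 0.0329%, less than miR-122 with 0.0421% and 0.0554%. MiR-144 (erythroid) was listed only in replicate 2 with 73 reads, and miR-124 (neural) only in replicate 1 with 2 reads. In whole hearts, fewer cells of a type and less RNA per cell cannot be told apart, so the shares of the cluster say nothing of which cells hold it.

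Within the cluster, mature levels did not follow the order of transcription. MiR-351-5p, from the third hairpin in order, was the highest, with 25937 reads in replicate 1 against 35975 in replicate 2 (0.525% and 0.749% of mature reads). It ranked 29 by mean share among all entries listed in both replicates, at 36 in replicate 1 and 26 in replicate 2. Ranks here and below count a sequence listed at several entries once per entry. By mean share, miR-351-5p stood between miR-30a-5p (0.660% ± 0.063) and miR-145a-5p (0.625% ± 0.001; SD, n = 2 for each), with miR-27b-3p and miR-30c-5p as the next ones out. Its mean of 0.637% ± 0.158 (SD, n = 2) was not separated from these 4 neighbours, since all their replicate values lay between those of miR-351-5p.

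MiR-322-3p came next, with 15766 and 14416 mature reads (0.319% and 0.300%, rank 53). MiR-542-3p, an arm known to target the apoptosis inhibitor survivin, had 7012 and 5720 reads (0.142% and 0.119%, rank 81). The 5p arm common to both miR-450a hairpins had 5618 and 5654 reads (0.114% and 0.118%), and its value in replicate 2 lay just below that of miR-542-3p. MiR-503-3p followed with 4103 and 4619 reads (0.0830% and 0.0961%), and miR-450b-5p was the lowest mature arm with 1775 and 1593 reads (0.0359% and 0.0331%). The order of the mature arms was the same in both replicates, and no neighbours among them overlapped in share, although miR-542-3p and miR-450a-5p in replicate 2 were within each other's Wilson interval. MiR-351-5p was 14.6 times as high as miR-450b-5p in replicate 1 and 22.6 times in replicate 2 (18.6 ± 5.6, SD, n = 2).

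**Figure D1:**
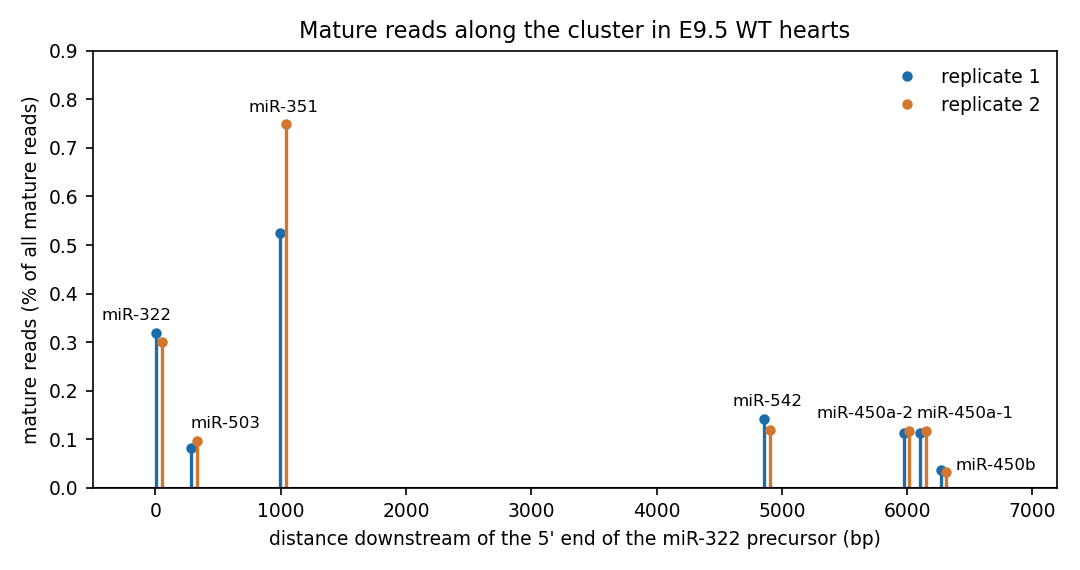
Mature reads of each precursor as percent of the replicate's mature reads (vertical axis) against distance in bp downstream of the 5′ end of the miR-322 precursor (horizontal axis), with 1 stem for each replicate, drawn side by side. MiR-351 stands highest in both replicates, at 0.525% and 0.749%. The second miR-450b entry is left out because it lists the same reads as the first. The miR-450a hairpins are each drawn, but they share a mature sequence, so their stems are not separate measurements.

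The named arm of the tables was not the arm with most reads in 3 of the 8 entries. The tables name miR-322-5p, miR-503-5p and miR-542-5p, but most reads lay on the 3p arm in all 3. This naming was common, at 218 of 568 entries in replicate 1 (38.4%) and 199 of 523 in replicate 2 (38.0%).

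For miR-322, the 5p arm, which carries the seed core of the miR-15/16 family, had 1168 reads in replicate 1 and 1008 in replicate 2. The 3p arm thus had 13.5 times as many reads in replicate 1 and 14.3 times in replicate 2. The 5p arm made up 6.90% (95% Wilson interval 6.53% to 7.29%) and 6.54% (6.16% to 6.94%) of the reads on both arms, and this share did not differ detectably between the replicates (adjusted p = 0.901, Fisher's exact test).

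MiR-503 had the most even arms of the cluster. Its 5p arm, with the same seed core, had 3365 and 3005 reads beside 4103 and 4619 on the 3p arm, a share of 45.1% (43.9% to 46.2%) in replicate 1 and 39.4% (38.3% to 40.5%) in replicate 2. The share was lower in replicate 2 (adjusted p = 1.3e-10, Fisher's exact test). Among 377 entries with at least 20 reads on both arms together in each replicate, 12 had a mean share of the opposite arm over 40%, and the median was 0.949%. In 11 entries the mean share was higher than in miR-503. MiR-503 was also the only member with loop reads, 9 and 12.

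MiR-450b came next in this measure. Its 3p arm had 567 and 633 reads, or 24.2% (22.5% to 26.0%) and 28.4% (26.6% to 30.3%) of the reads on both arms, and the share was higher in replicate 2 (adjusted p = 0.019, Fisher's exact test). Of the 377 entries, 33 (8.75%) differed in this share at an adjusted p of 0.05, against 2 of the 8 member entries, miR-503 and miR-450b.

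The miR-351 and miR-542 hairpins gave nearly all reads from 1 arm. MiR-351-3p had 482 and 604 reads, so that miR-351-5p exceeded it 53.8 and 59.6 times. MiR-542-5p had 19 and 17 reads, and miR-542-3p exceeded it 369 and 336 times. Although the miR-450a hairpins cannot be told apart by their 5p arm, their 3p arms differ in sequence. MiR-450a-1-3p had 110 and 112 reads and miR-450a-2-3p only 8 and 6, a ratio of 13.8 in replicate 1 and 18.7 in replicate 2. MiR-450b-3p, with the same seed as miR-450a-1-3p, had 5.15 and 5.65 times its reads. The level of the opposite arm thus ranged from a few reads for miR-450a-2 to nearly that of the mature arm for miR-503, all within 1 cluster.

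**Figure D2:**
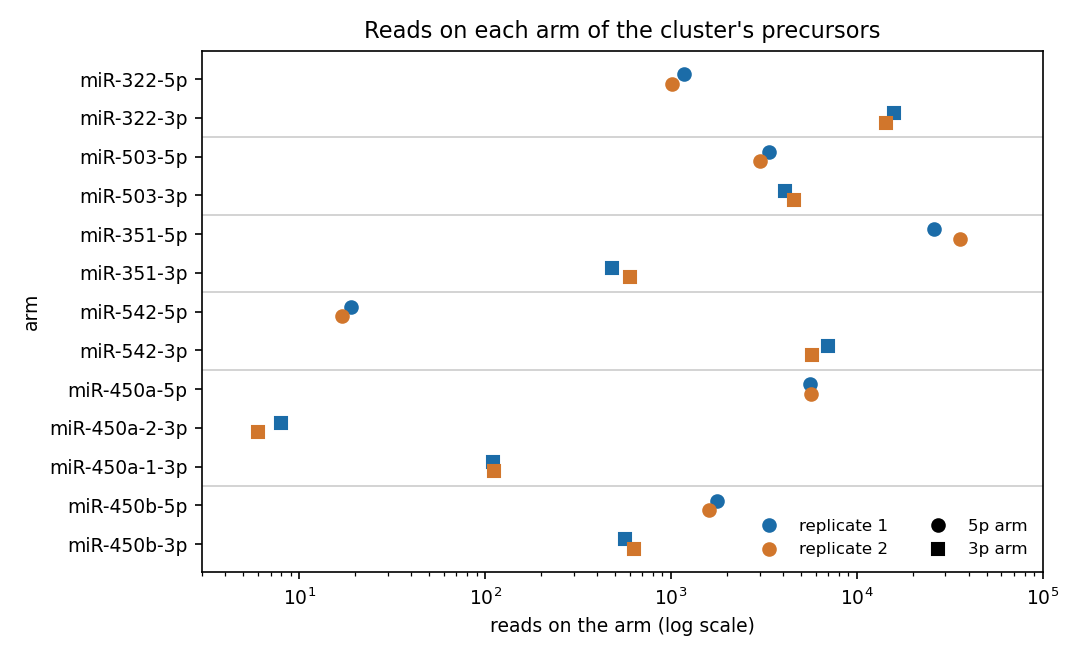
Reads on the 5p arm (circles) and the 3p arm (squares) of the cluster's precursors on a log scale, with 1 colour for each replicate. The arms of miR-503 lie close together, while those of miR-542, with 7012 and 19 reads in replicate 1, lie farthest apart among hairpins with an arm of their own.

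Because the seed decides pairing, the named arm of each member, which is the 5p arm throughout, was set beside all other arms with the same seed. Nucleotides 2 to 7 of miR-322-5p and miR-503-5p, AGCAGC, were also found in miR-16-5p, miR-15b-5p, miR-497a-5p, miR-15a-5p and miR-195a-5p. The seed CCCUGAG of miR-351-5p was also found in miR-125a-5p and miR-125b-5p. Outside the cluster, no arm with reads had nucleotides 2 to 7 of miR-542-5p, miR-450a-5p or miR-450b-5p. Relatives of the opposite arms of these hairpins are not reported. This leaves out miR-322-3p, miR-503-3p and miR-542-3p, which held most reads of their hairpins. The most abundant relatives are shown for comparison with the arms above.
miR-16-5p: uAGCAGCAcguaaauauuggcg
miR-15b-5p: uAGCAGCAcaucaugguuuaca
miR-125a-5p: uCCCUGAGacccuuuaaccugug
miR-125b-5p: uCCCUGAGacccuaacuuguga

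Nucleotides 2 to 8 of miR-322-5p are those of miR-16-5p and miR-15b-5p, whereas miR-503-5p has another letter at nucleotide 8. MiR-503-5p was the highest of the arms with AGCAGC, with 0.0681 reads per 100 mature reads in replicate 1 and 0.0625 in replicate 2. These values scale the reads of an arm by the library's mature total, which does not itself hold reads of opposite arms such as miR-503-5p and miR-322-5p. MiR-16-5p followed with 0.0435 and 0.0488 by its higher entry, then miR-322-5p with 0.0236 and 0.0210, and miR-15b-5p with 0.0145 and 0.0152. No neighbours among these 4 overlapped. The cluster gave 46.1% (95% Wilson interval 45.2% to 47.1%) of the reads with AGCAGC in replicate 1 and 41.4% (40.4% to 42.3%) in replicate 2, or 43.8% ± 3.4 (SD, n = 2). Here the reads of miR-16-5p and miR-15a-5p, which have 2 entries each, are counted at both. With each sequence counted once the part of the cluster was 59.5% and 54.9%, or 57.2% ± 3.3 (SD, n = 2), so whether the cluster gave more or less than the remaining arms depended on this choice.

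MiR-351-5p exceeded its relatives by more. Of the reads with the seed CCCUGAG, miR-351-5p held 73.0% in replicate 1 and 76.7% in replicate 2, or 74.8% ± 2.6 (SD, n = 2), and 85.5% ± 1.7 with each sequence counted once. In the lower figure the reads of miR-125a-5p and miR-125b-5p, which have 2 entries each, are counted at both. MiR-125a-5p had 2851 and 3444 reads and miR-125b-5p 1975 and 2053 by its higher entry, compared with 25937 and 35975 for miR-351-5p. The log2 ratios of replicate 2 over replicate 1 were 0.51 for miR-351-5p, 0.31 for miR-125a-5p and 0.10 for miR-125b-5p.

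**Figure D3:**
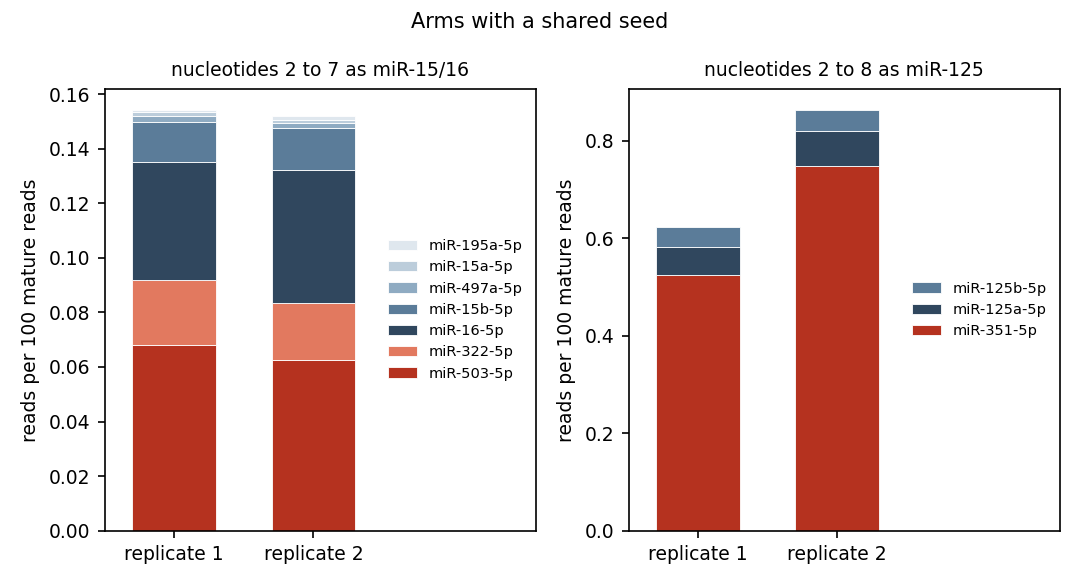
Reads of the arms with the same seed core as miR-322-5p and miR-503-5p (left) and the same seed as miR-351-5p (right), per 100 mature reads of the replicate (a total without opposite arms, to which miR-503-5p, miR-322-5p and miR-195a-5p belong), stacked for each replicate and with each sequence counted once by its highest entry (vertical axes differ). Cluster members are red and relatives blue, and miR-351-5p makes up most of the bars on the right in both replicates.

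Lastly, each entry was compared between the replicates by an exact binomial test against the totals of mature reads, which covers read-counting error only. Of 431 entries listed in both replicates with at least 20 mature reads in sum, 177 (41.1%) differed at an adjusted p of 0.05, of which 119 were higher in replicate 2 (27.6% of entries tested) and 58 lower (13.5%). This split depended on the scaling, as it was 86 higher and 92 lower by edgeR's TMM factors and 78 and 98 by DESeq2's size factors. All 8 member entries passed this minimum of reads, and 4 of them differed, 2 in each direction. By TMM factors and by size factors 6 of the 8 differed, 2 higher and 4 lower, as they did with at least 100 mature reads in each replicate, where 174 of all 305 entries differed. The 2 further entries are both of miR-450b-5p and list the same reads. The 8 entries hold only 6 mature sequences, and with each sequence counted once 4 of the 6 differed, 2 in each direction. The median log2 ratio of replicate 2 over replicate 1 was -0.02 over the 8 entries and 0.07 over the 431.

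MiR-351-5p was higher in replicate 2, with a log2 ratio of 0.51 (95% exact interval 0.49 to 0.54). Its p-value underflowed to 0 in the exact binomial test. Of all 431 entries tested, 41 had a log2 ratio at least as high, and the median absolute log2 ratio of the 431 was 0.19. Among the 187 entries that had 1000 or more mature reads in each replicate, 4 showed a ratio at least as high, and the median absolute log2 ratio was 0.12. Both counts include miR-351-5p. MiR-503-3p was also higher in replicate 2, at 0.21 (0.15 to 0.27; adjusted p = 5.0e-11, exact binomial test), but at 0.07 when all reads of its precursor were counted. MiR-542-3p was lower, at -0.25 (-0.30 to -0.20; adjusted p = 4.0e-22, same exact test), and miR-322-3p was slightly lower, at -0.09 (-0.12 to -0.06; adjusted p = 4.4e-07, same exact test). The miR-450a entries, at 0.05 each (adjusted p = 0.138 and 0.140, exact binomial test), and miR-450b-5p, at -0.12 (adjusted p = 0.0501, same exact test), did not pass the threshold, and the sign of the miR-450a ratios turned under TMM and size factors. Thus arms of 1 cluster differed in opposite directions between the replicates. Of the mature reads of the cluster summed over its entries, miR-351 took 38.4% in replicate 1 and 47.8% in replicate 2, and miR-322 took 23.3% and 19.2%. This sum repeats the reads of miR-450a-5p and of miR-450b-5p, which are listed at several entries. With each sequence counted once the sum is smaller, so the parts of miR-351 and miR-322 are larger than printed here.

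The opposite arms, chosen for this test after seeing the data, gave a second reading from the same hairpins and libraries. They were tested against the same totals of mature reads. Of 177 entries with at least 20 such reads in sum, 40 (22.6%) differed between the replicates, and 3 of the 6 member entries tested did. MiR-351-3p was higher in replicate 2 like its 5p arm, at a log2 ratio of 0.37 (0.19 to 0.54; adjusted p = 0.00033, exact binomial test). MiR-322-5p was lower like its 3p arm, at -0.17 (-0.30 to -0.05; adjusted p = 0.031, same exact test). The arms of miR-503 parted, as miR-503-5p was lower at -0.12 (-0.19 to -0.05; adjusted p = 0.0047, same exact test) and miR-503-3p higher. MiR-450b-3p was at 0.20 (adjusted p = 0.072, exact binomial test), miR-450a-1-3p at 0.07 (its exact adjusted p was 0.891) and miR-542-5p at -0.12 with an interval from -1.15 to 0.90, since 19 and 17 reads cannot show a difference of that size. MiR-450a-2 and the second miR-450b entry had too few such reads to be tested.

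**Figure D4:**
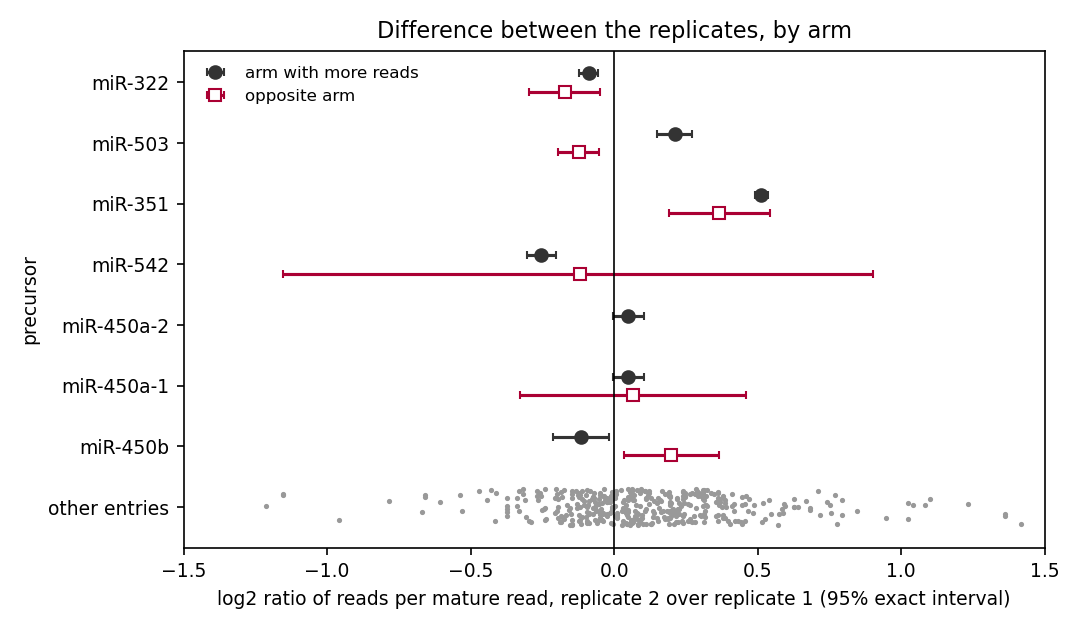
Log2 ratio of reads per mature read of the library in replicate 2 over replicate 1 with its 95% exact binomial interval for the arm with more reads (filled circles) and the opposite arm (open squares) of each precursor, and for the mature reads of 420 of the 423 other entries (grey points; 3 lie beyond the axis limit of 1.5). Both arms of miR-351 lie above 0, both arms of miR-322 below 0, and those of miR-503 on either side.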

How the data were processed

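Small RNA libraries (TruSeq Small RNA kit) of E9.5 WT hearts were read from one end on HiSeq2500, and clean reads were mapped by the authors to mm9 with miRDeep2, 1 run per replicate. The deposited values are raw read counts per known precursor, without normalization, and the deposited miRDeep2 score, which is rounded. How adapters were trimmed, which lengths were kept and which releases of miRDeep2 and miRBase were used is not given in the sources used here. The members and lists were chosen with earlier results of these data known, and the named miRNAs are the members, their relatives by seed and their neighbours in rank.

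Entries of the replicates were paired by same-strand overlap of at least 50%, giving 620 entries with 471 in both. Starts on the minus strand were raised by 1 to count from 1. All 8 member precursors were then identical to NCBIM37, the assembly of mm9. Shares are percent of all mature reads, with mean and SD over 2 replicates. An edgeR or DESeq2 test was not possible with 1 group, so replicates were compared by two-sided exact binomial and Fisher tests with Benjamini-Hochberg adjustment over all entries tested, which were also tested on simulated data. Alternative scalings used edgeR 4.0.16 and DESeq2 1.42.0 under R 4.3.3. Python 3.11.15 with scipy 1.17.1 was used otherwise.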

Additional observations from a re-analysis of the deposited data

How the results depend on the processing

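The cluster's share of mature reads was 1.47% but 1.80% when a mature sequence listed at several entries was counted once, which also lowers the total, and ran from 1.37% to 1.57% with either replicate left out. The cluster's part of the reads with AGCAGC moved from 43.8% to 57.2% with each sequence counted once and to 76.3% with all reads of the precursors, which adds the 3p reads of miR-322 and miR-503. The part of miR-351-5p in the CCCUGAG reads moved from 74.8% to 85.5% and 71.6% under the same choices. The number of entries that differ between the replicates lay between 138 of 352 tested (each sequence counted once) and 184 of 432 (all reads of the precursor). It was 174 of 305 with at least 100 mature reads in each replicate and 177 of 471 with no minimum, so the share that differed depended on the minimum. The direction depended on the scaling, with 119 higher and 58 lower in replicate 2 by totals of mature reads, 86 and 92 by TMM factors, and 78 and 98 by DESeq2's size factors. TMM factors and DESeq2's size factors shift all log2 ratios by -0.059 and -0.068. The miR-450a ratios, which passed no threshold, then changed sign, to -0.0088 for miR-450a-2 and -0.0091 for miR-450a-1 by TMM factors and to -0.018 and -0.019 by size factors. MiR-450b-5p passed the threshold under both scalings (adjusted p = 0.0015 and 0.00075, exact binomial test) and with at least 100 reads in each replicate (adjusted p = 0.038, same test). This raised the member entries that differ from 4 to 6, as its 2 entries list the same reads. With each mature sequence counted once, 4 of 6 member sequences differed. MiR-351, miR-322, miR-503 and miR-542 kept direction and call under the 7 alternatives tried for their ratios, with miR-503 at 0.07 when all reads of its precursor were counted. Of the shares of single entries, 12 moved and 12 did not, under the alternatives that keep both replicates. With each mature sequence counted once, the shares of all member entries rose, for miR-351 from 0.637% to 0.872% and for miR-322 from 0.309% to 0.424%. Counting each arm once (1.43 reads of both arms per 100 mature reads, a total without opposite arms), leaving out the second miR-450b entry (1.43%) and testing only entries with 1 mature arm in both replicates were chosen after seeing the data. No paired analysis was possible because the series has 1 group. Counts of 19 and 17 (miR-542-5p) or 8 and 6 (miR-450a-2-3p) limit what can be seen of these arms.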

Other observations

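Seed matches of the cluster's arms were sought in the longest annotated 3′ UTR (GENCODE vM1) of genes of the cell cycle and of Celf1, an RNA-binding protein known as a target of miR-322 and miR-503 in heart progenitors. Wee1 was not analysed here. A match is the 7 letters that pair with nucleotides 2 to 8 on the transcript strand. The letters for miR-322-5p, TGCTGCT, occurred 2 times in Cdc25a, a phosphatase that drives entry into the cell cycle, and 1 time each in the cyclins Ccnd1 and Ccne1, the checkpoint kinase Chek1 and Celf1. Among 3′ UTRs within 20% of the length of that of Cdc25a, Ccnd1, Ccne1, Chek1 and Celf1, 26.3%, 38.6%, 9.24%, 28.0% and 64.7% held these letters, so such a match is common in long 3′ UTRs. The letters for miR-503-5p, CGCTGCT, occurred 2 times in Ccnd1, where 8.15% of 3′ UTRs of like length held them, and in none of the other 4. Each TGCTGCT also holds GCTGCT, the letters that pair with nucleotides 2 to 7 of miR-503-5p. Such shorter matches were not counted, so the other 4 genes are not without any match to miR-503-5p. The letters for miR-322-3p, TCATGTT, which is the arm with more reads, occurred 1 time in Cdc25a and 1 time in Chek1 (16.04% and 18.1% of 3′ UTRs of like length). Those for miR-351-5p, CTCAGGG, occurred 2 times in Celf1 (42.1%). Those for miR-542-3p, CTGTCAC, occurred 1 time in Cdc25a (17.5%) and 1 time in Celf1 (53.6%), and those for miR-503-3p, AATACTC, 1 time in Chek1 (7.68%). The miR-503-3p letters are for the start seen in these hearts, and those for its RefSeq seed were not sought. The letters for miR-450b-5p, CTGCAAA, occurred 1 time in Cdc25a (14.4%), 1 time in Ccnd1 (21.1%) and 2 times in Chek1 (15.8%). The letters for miR-450a-5p, TCGCAAA, occurred in none of the 5 genes and in 1.03% of all 19915 3′ UTRs. First matches are printed with up to 14 bases before and 1 after, the match in capitals.
Cdc25a, miR-322-5p: aaaagccgcccaagTGCTGCTg
Ccnd1, miR-503-5p: ggctcctctcatggCGCTGCTa
Ccne1, miR-322-5p: tcttattttgtaagTGCTGCTa

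mRNA levels of these genes were not analysed here, and the matches describe letters only.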
